A study of Homo sapiens with 18 samples.

Results

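The regions described here are intronic stretches of chromatin with strong H3K4me1 in ZR751 breast cancer cells. They were selected on signal. From each of the 4 H3K4me1 libraries the 20000 top-ranked peaks were taken, and peaks that overlapped by at least 1 bp were merged into 43707 regions. Of these, 20985 had their midpoint inside a protein-coding gene, outside its exons and more than 1 kb from the transcription start site (TSS) of any protein-coding transcript on hg19. A further 19620 were intergenic, 1661 lay within 1 kb of a TSS and 1441 lay in exons. Because the members were chosen by their rank, which library held which region is a description and was not tested.

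Monomethylation of lysine 4 of histone H3 marks enhancers, the stretches of DNA that bind transcription factors and act on promoters at a distance. MLL3, listed under its current symbol KMT2C, and its relative KMT2D are the main enzymes that place the mark at enhancers. Many enhancers lie in introns, and in estrogen receptor-positive breast cancer cells enhancers are opened by the pioneer factor FOXA1 and bound by the estrogen receptor, ERα.

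ZR751 (ZR-75-1) is an established ER+ human breast cancer cell line. Cells were stably transduced with a lentivirus carrying a short hairpin RNA against MLL3 (ZR751shMLL3) or against luciferase as the control (ZR751shLucif), and were sorted for the GFP of the vector. H3K4me1, ERα and SP1, a GC-box binding transcription factor, were mapped by ChIP-seq, and RNA was sequenced, with 2 libraries per cell line and assay. Both cell lines thus carry a hairpin vector, and each is a single transduced population, from which cells of several early passages were taken. The replicates are described as biological, and the tests measure only the spread between them. Peaks of a cell line were called against the input of that cell line, so that input and knockdown cannot be told apart.

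All 9 luminal markers, among them ESR1, GATA3, FOXA1 and KRT8, were above 1 FPKM (fragments scaled to transcript length and library size) in each RNA library. Of 6 basal and mesenchymal markers, 5 stayed below 1 FPKM in every library and COL1A1 did not. The 3 blood cell markers also stayed below 1 FPKM, and of the neuronal markers SNAP25 did but SYT1, at 1.16 to 4.44 FPKM, did not. KMT2C itself had 2.34 and 6.77 FPKM in replicates 1 and 2 of ZR751shLucif, against 1.07 and 2.69 FPKM after knockdown, so that the ranges overlapped (limma adjusted p = 0.629). KMT2C carried 3 of the intronic regions. RNA of ZR751shLucif replicate 1 stood apart, with correlations of 0.900 to 0.907 to the other RNA libraries over 11134 genes, where the others had 0.947 to 0.969 among themselves. In bulk libraries such as these, fewer cells and less signal per cell cannot be told apart, and the peak lists and the FPKM values carry no read counts, so that no depth per library was used here. The H3K4me1 lists held 299979 to 300000 peaks each. Their signal is on a scale of its own in every list, so that only ranks within a list were used, with rank 1 the strongest.

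Sequences of 6 members are shown, 300 bases each on the plus strand of GRCh37, so that the DNA under the strongest and the most ERα-bound regions can be read. The first 4 are centred on the ERα summit of the best-ranked ERα library. C12orf60 (chr12:14972985-14973284) is the only one of 646 members in all 4 H3K4me1 libraries that also held a top-ranked ERα summit in all 4 ERα libraries. TPM3 (chr1:154163043-154163342), NOS1AP (chr1:162299648-162299947) and RBBP8 (chr18:20427209-20427508) held one in all 4 ERα libraries but not in all 4 H3K4me1 libraries, and were chosen after their values were seen. The last 2 are centred on the H3K4me1 summit of the top member in all 4 libraries, SRGAP1 (chr12:64477822-64478121), and of the top member in ZR751shMLL3 only, WDR70 (chr5:37717140-37717439). Capitals mark matches on either strand to the estrogen response element (ERE, GGTCANNNTGACC), the forkhead motif TGTTTAC, the GATA motif AGATAA, the AP-1 motif TGACTCA and the SP1 motif GGGCGG.
C12orf60: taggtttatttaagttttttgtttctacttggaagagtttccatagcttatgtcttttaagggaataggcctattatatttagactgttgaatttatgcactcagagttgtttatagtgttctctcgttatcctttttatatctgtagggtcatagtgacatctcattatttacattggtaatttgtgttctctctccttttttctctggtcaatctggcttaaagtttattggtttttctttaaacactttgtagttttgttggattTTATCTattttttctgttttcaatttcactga
TPM3: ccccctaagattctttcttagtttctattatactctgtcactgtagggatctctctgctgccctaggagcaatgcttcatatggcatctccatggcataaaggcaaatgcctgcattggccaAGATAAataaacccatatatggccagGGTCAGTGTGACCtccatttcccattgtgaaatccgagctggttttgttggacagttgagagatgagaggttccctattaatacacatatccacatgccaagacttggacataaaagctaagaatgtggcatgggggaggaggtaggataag
NOS1AP: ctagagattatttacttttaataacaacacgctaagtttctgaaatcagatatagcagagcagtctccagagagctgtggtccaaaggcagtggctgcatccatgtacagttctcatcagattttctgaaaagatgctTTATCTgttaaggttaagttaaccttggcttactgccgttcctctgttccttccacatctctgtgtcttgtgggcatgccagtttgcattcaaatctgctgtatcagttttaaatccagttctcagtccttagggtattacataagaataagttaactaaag
RBBP8: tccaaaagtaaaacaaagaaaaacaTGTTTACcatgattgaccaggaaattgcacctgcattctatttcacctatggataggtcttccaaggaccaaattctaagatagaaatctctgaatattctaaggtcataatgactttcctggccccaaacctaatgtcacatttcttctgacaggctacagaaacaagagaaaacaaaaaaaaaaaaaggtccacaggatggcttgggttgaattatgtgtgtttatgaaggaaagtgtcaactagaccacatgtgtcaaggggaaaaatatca
SRGAP1: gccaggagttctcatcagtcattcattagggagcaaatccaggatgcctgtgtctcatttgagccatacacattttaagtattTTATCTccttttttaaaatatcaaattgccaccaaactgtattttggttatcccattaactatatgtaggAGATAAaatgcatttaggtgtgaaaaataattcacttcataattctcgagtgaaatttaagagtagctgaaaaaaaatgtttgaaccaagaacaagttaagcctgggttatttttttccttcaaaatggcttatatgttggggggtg
WDR70: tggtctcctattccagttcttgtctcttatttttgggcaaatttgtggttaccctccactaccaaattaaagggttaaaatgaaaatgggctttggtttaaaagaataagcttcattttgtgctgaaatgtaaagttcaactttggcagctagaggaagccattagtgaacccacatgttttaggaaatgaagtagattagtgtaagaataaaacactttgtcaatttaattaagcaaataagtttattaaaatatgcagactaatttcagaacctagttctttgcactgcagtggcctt

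Of these windows, the one in TPM3 holds a full palindromic ERE, beside a GATA match. The windows in C12orf60 and NOS1AP each hold 1 GATA match, the one in RBBP8 holds 1 forkhead match, and the one in SRGAP1 holds 2 GATA matches. No match was found in the WDR70 window. Only exact matches were marked. The windows in C12orf60 and RBBP8 each hold a sequence that departs from the ERE by 1 base, which was therefore not marked.

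Most intronic regions were among the top-ranked peaks of 1 library only. This was so for 14420 of the 20985 members (68.7%). A further 2449 (11.7%) were held by 1 library of each cell line, 1691 (8.06%) by 3 libraries and 646 (3.08%) by all 4. Members held by both ZR751shLucif libraries and by no ZR751shMLL3 library numbered 954 (4.55%), and the reverse pattern was found for 825 (3.93%). Intergenic regions were divided in much the same way, with 69.3% in 1 library, 3.14% in all 4, 4.84% in ZR751shLucif only and 3.39% in ZR751shMLL3 only. The same number of peaks, 20000, was taken from every library. A loss or gain of H3K4me1 over all sites could therefore not show in these counts.

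ZR751shLucif replicates 1 and 2 held 7086 and 6987 of the members, and ZR751shMLL3 replicates 1 and 2 held 8990 and 7470. ZR751shMLL3 replicate 1 held the most, and 5090 of its members (56.6%) were in no other library, against 38.2 and 43.1% for the ZR751shLucif replicates and 48.4% for ZR751shMLL3 replicate 2. That library also had the narrowest top-ranked peaks, with a median of 576 bp, where the other libraries had 840 to 964 bp, and the lowest −log10 FDR at rank 20000, 2.23 against 3.65 to 4.23. The part of width and FDR in these counts was not tested. As a share of all top-ranked peaks, intronic peaks made up 47.5 and 46.8% in ZR751shLucif and 49.9 and 47.4% in ZR751shMLL3. The mean share was thus 47.2% ± 0.523 (SD, n = 2) in the control and 48.6% ± 1.77 (SD, n = 2) after knockdown, and the difference of 1.49 points was smaller than the SD within ZR751shMLL3. As ranks chose the peaks, this is a description. Without ZR751shMLL3 replicate 1 the difference was 0.235 points.

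**Figure D1:**
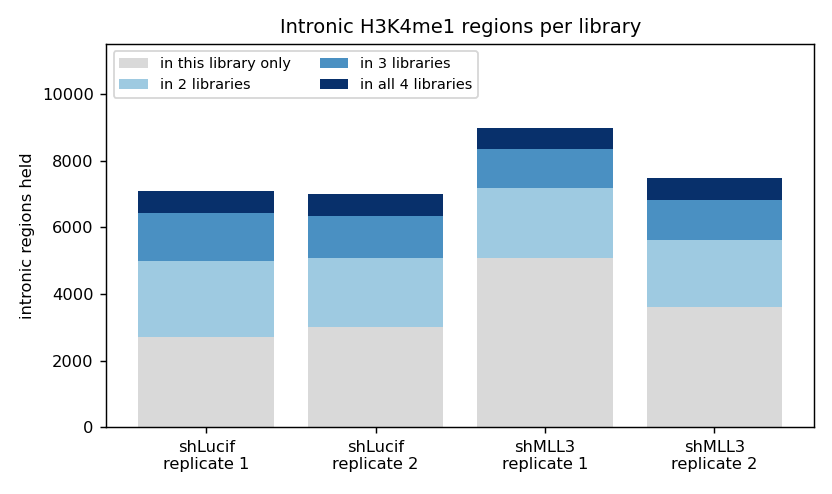
Intronic H3K4me1 regions held by each library (y axis, number of regions), divided by the number of libraries that held them. ZR751shMLL3 replicate 1 held 8990 regions, of which 5090 were in no other library, and the 646 regions in all 4 libraries form the top of each bar.

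Signal was nearly level at the end of the selection. In ZR751shLucif replicate 1 the peak at rank 20000 had a signal of 26.0604, and the next peak, outside the selection, 26.0602. In ZR751shMLL3 replicate 1 these values were 10.6242 and 10.6241. Members in all 4 libraries stood higher within each list than the others. Their median rank was 3706.5 and 3874.5 in replicates 1 and 2 of ZR751shLucif, and 4439.5 and 4408 in those of ZR751shMLL3, whereas members in 1 library had medians of 11979.5 and 11745 and of 11209 and 11648.5. They were also wider, with a median of 1603.5 bp against 840 bp, each a merger of a median of 6 peaks.

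Replicates of ZR751shLucif shared 2615 members, which were 36.9% of those of replicate 1 and 37.4% of those of replicate 2. Replicates of ZR751shMLL3 shared 2147, or 23.9 and 28.7%. Between the cell lines, the pairs shared 1959 to 2263 members, and these made up 21.8 to 31.9% of either library. The ZR751shMLL3 replicates therefore shared no larger part of their members with each other than ZR751shLucif replicate 1 shared with each of them, 31.9 and 31.4% of its own. Among members with a rank of 2000 or better, 72.8% of those of ZR751shLucif replicate 1 were held by replicate 2, and 44.7% of those of ZR751shMLL3 replicate 1 were held by its replicate.

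Absence from the top ranks was seldom absence from a list. The deposited lists cover 6.21 to 8.07% of the bases of the intronic sequence that could hold a member. They overlapped 84.2 to 88.7% of all members, where any overlap of a region counts, which is a looser measure than bases covered. Of members that a library did not hold, its whole list still overlapped 74.9 to 83.0%. Of the 954 members in ZR751shLucif only, 800 (83.9%) overlapped a listed peak of ZR751shMLL3 replicate 1, with a median rank of 66729.5, and 834 (87.4%) overlapped one of replicate 2, with a median rank of 71234. Ranks of 50000 or better were reached by 31.9 and 31.1% of them. Of the 825 members in ZR751shMLL3 only, 91.5 and 84.4% overlapped a listed peak of replicates 1 and 2 of ZR751shLucif, and 35.0 and 28.4% one ranked 50000 or better.

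The strongest members in all 4 libraries lay in SRGAP1, CD46, C12orf60, OPN3 and HDAC9. The region in intron 10 of SRGAP1, a GTPase-activating protein of the Slit-Robo pathway (chr12:64477348-64478841), ranked 6 and 2 in replicates 1 and 2 of ZR751shLucif, and 153 and 4 in those of ZR751shMLL3. Intron 11 of CD46, a regulator of complement, held the next (chr1:207962067-207963456), with ranks of 64 and 118 and of 332 and 332. The region in C12orf60 (chr12:15055780-15057949) ranked 122 and 463 in the control and 463 or better in every library. OPN3, an opsin gene, held chr1:241753295-241754779 at ranks 8 and 452 and at 518 and 398. The C12orf60 and OPN3 regions lay in no intron of the canonical transcript, and the latter reached past the 3′ end of its gene. The region in intron 21 of HDAC9, a class IIa histone deacetylase (chr7:18884357-18886398), ranked 702 and 210 and then 69 and 293. These 5 lay on chromosomes 1, 7 and 12, and only the HDAC9 region held a top-ranked ERα summit, at rank 6577 in ZR751shLucif replicate 1, and a top-ranked SP1 summit, at rank 8652 in ZR751shMLL3 replicate 2.

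The top member in ZR751shLucif only lay in intron 16 of KDM2A, a histone H3K36 demethylase (chr11:67014812-67017488). It ranked 11 and 24 in the ZR751shLucif libraries, and neither ZR751shMLL3 list had a peak there. The region held a top-ranked ERα summit in 1 library, at rank 605 in ZR751shLucif replicate 2. KDM2A RNA had 89.2 and 67.9 FPKM in the control libraries, against 95.5 and 102 after knockdown (log2 fold change 0.34, limma adjusted p = 0.702). The region in the first intron of NIBAN1, a stress-response gene (chr1:184897884-184899259), ranked 21 and 192 in ZR751shLucif and 60136 and 124748 in ZR751shMLL3. The others lay in CNIH4, PIK3C2G and BMERB1. In ZR751shMLL3 the PIK3C2G region (chr12:18555628-18556962) was close to the limit of selection, at ranks 26832 and 27758.

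Of members in ZR751shMLL3 only, the top one lay in intron 13 of WDR70 (chr5:37716870-37718046), at ranks 463 and 186 in ZR751shMLL3 and 79887 and 22544 in ZR751shLucif. The region in intron 3 of the potassium channel gene KCNK2 (chr1:215310442-215311281) ranked 125 and 541, against 30607 and 113573. Those in the complement protease gene C1S and in KCTD3 had ranks of 67 and 467 in ZR751shMLL3 replicate 1 and ranks of 22463 to 38839 in ZR751shLucif. The last lay in the first intron of KIAA1328, while that in C1S lay in no intron of the canonical transcript. The same ranks chose these regions, and ranks differed between replicates as well, from 22544 to 79887 for WDR70 within ZR751shLucif.

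Members were not spread evenly over the genome. Over 1154 Mb of eligible intron, the sequence that meets the position rule, there were 18.2 members per Mb. Densities were 27.7 on chromosome 1, 29.6 on chromosome 12, 29.2 on chromosome 18 and 22.1 on chromosome 7, and 4.31 on chromosome 19 and 4.42 on chromosome 21. Members in all 4 libraries were far more concentrated, with 265 on chromosome 1, 106 on chromosome 12 and 83 on chromosome 7. These 3 chromosomes held 70.3% of them, but 28.8% of all members and 19.8% of eligible intron. Chromosomes 6, 19 and 21 held none. In chromosome 1, 12 and 7 introns 7.51% of members were in all 4 libraries, against 1.29% elsewhere.

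**Figure D2:**
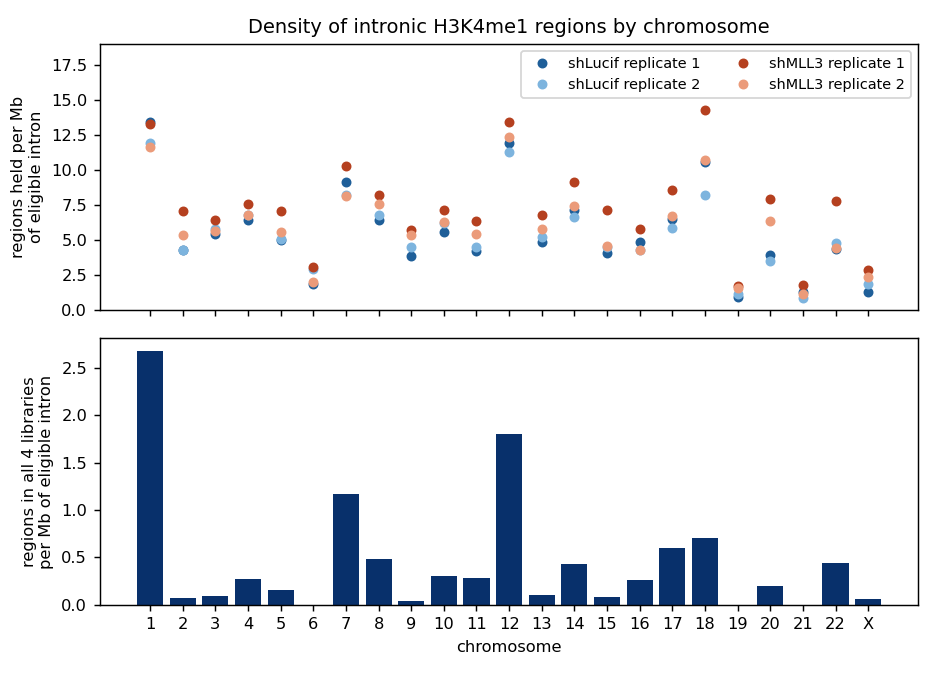
Upper panel, intronic H3K4me1 regions held by each library per Mb of eligible intron, by chromosome, and lower panel, regions held by all 4 libraries per Mb. All 4 libraries were dense on chromosomes 1 and 12, at 11.3 to 13.4 regions per Mb, and regions in all 4 libraries reached 2.68 per Mb on chromosome 1 and 1.80 on chromosome 12.

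The concentration was finer than whole chromosomes. The genome was divided into bins of 10 Mb, and 12 of the bins with the most members in all 4 libraries, 7 on chromosome 1, 3 on chromosome 12 and 2 on chromosome 7, held 51.7% of these members in 4.86% of eligible intron. The bin chr1:210000001-220000000 came first, with 46, and was followed by its neighbour chr1:220000001-230000000, with 40, and by chr7:10000001-20000000, with 39. The last 3 of the 12 had 17 each, as did a bin that was not counted, chr1:190000001-200000000. The same 12 bins held 59.1% of intergenic regions in all 4 libraries. Of members in 1 library they held 9.88%, of those in ZR751shLucif only 22.0% and of those in ZR751shMLL3 only 18.1%. Top-ranked ERα and SP1 summits in introns fell in these bins as well. The share was 23.7 and 22.4% for ERα in ZR751shLucif replicate 2 and ZR751shMLL3 replicate 1, and 8.91 and 7.07% in the other ERα libraries. For SP1 it was 10.3 to 21.9%. The number of DNA copies and the input libraries were not analysed here.

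Within genes, members were densest near the 5′ end, in sequence beyond 1 kb of a TSS. Within 5 kb of the 5′ end of the host gene there were 35.7 members per Mb of eligible intron. At 5 to 10 kb there were 19.1, and beyond 10 kb 17.1 to 18.1. Each library showed this, with 12.01 to 14.4 members held per Mb within 5 kb and 5.57 to 7.19 beyond 100 kb. Since most intronic sequence is remote, so were most members, at a median of 74350 bp from the 5′ end, and 60.3% lay beyond 50 kb. Of 18641 members in an intron of the canonical transcript, 31.8% were in the first intron, which holds 23.9% of such sequence. Members in all 4 libraries lay at a median of 61252.5 bp, those in ZR751shLucif only at 78203.5 bp and those in ZR751shMLL3 only at 73598 bp, with 29.1, 30.8 and 32.5% in the first intron.

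**Figure D3:**
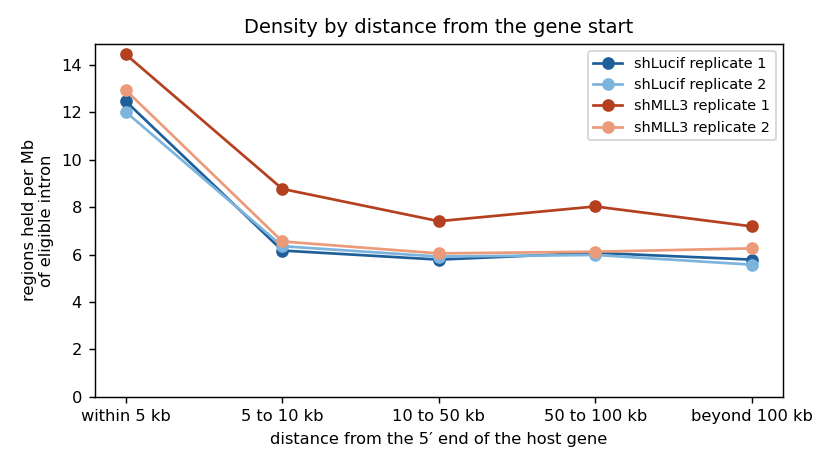
Intronic H3K4me1 regions held by each library per Mb of eligible intron (y axis) against the distance of the region midpoint from the 5′ end of the host gene (x axis, 5 classes). All 4 lines fall from 12.01 to 14.4 regions per Mb within 5 kb to 8.77 or fewer at 5 to 10 kb, and then stay level.

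Intronic members were AT-rich. In windows of 1000 bp around the midpoint, the median GC content was 37.6%, against 40.3% in 23003 windows of the same length set every 50 kb in eligible intron. The forkhead motif, bound by FOXA1 and its relatives, lay in 25.4% of members and 14.9% of these background windows, and the GATA motif in 62.7 and 52.9%. The AP-1 motif lay in 18.5 and 14.4%. The GC-rich SP1 motif was rarer in members, 6.27 against 12.01%. A full ERE lay in 31 members (0.148%) and in 11 background windows (0.0478%). None of the 5 motifs contains another, and over all 43707 merged regions the shares were 25.2, 63.1, 19.2, 6.51 and 0.158%. The forkhead share was 28.2% of members in all 4 libraries, 26.1% of those in ZR751shLucif only and 23.5% of those in ZR751shMLL3 only. A match is a run of letters and not a bound site, and the part of GC content in these shares was not tested.

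ERα and SP1, which the selection did not use, were looked up as the summits of the 20000 top-ranked peaks of each library. In every library such summits were denser in members than over eligible intron as a whole. The ratio of the densities was 2.05 and 4.92 for ERα in replicates 1 and 2 of ZR751shLucif, and 3.04 and 1.63 in those of ZR751shMLL3. For SP1 it was 2.70 and 1.76, and 2.26 and 5.14. The ERα ratios of 4.92 and 3.04 belonged to libraries with 23.7 and 22.4% of their intronic summits in the 12 bins above. Those of 2.05 and 1.63 belonged to libraries with 8.91 and 7.07% there. For SP1 the highest ratio went with 19.1% in these bins, and a ratio of 2.70 with 21.9%. The part of this concentration, of DNA copies and of the input in the ratios was not tested. Few members held such a summit, however. The share with an ERα summit was 1.45% (95% Wilson interval 1.30 to 1.62%) and 3.25% (3.02 to 3.50%) in replicates 1 and 2 of ZR751shLucif, and 1.88% (1.71 to 2.08%) and 1.12% (0.991 to 1.28%) in those of ZR751shMLL3. In all, 19528 members (93.1%) held none, 1330 held one in 1 library, 101 in 2, 17 in 3 and 9 in all 4.

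**Figure D4:**
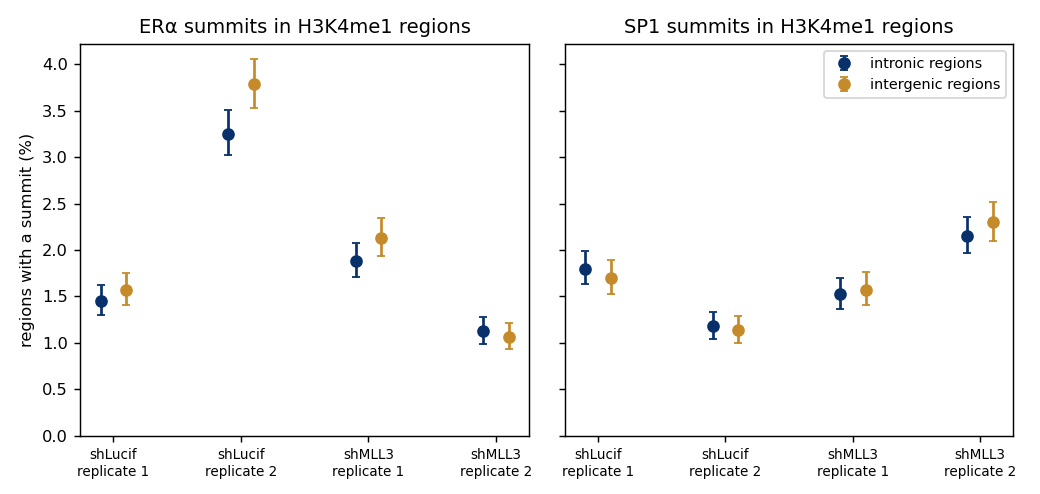
Share of H3K4me1 regions (y axis, %) that held the summit of a top-ranked ERα peak (left) or SP1 peak (right) in each library, for intronic and intergenic regions, with 95% Wilson intervals that cover counting error only. Replicates of a cell line differ more than intronic and intergenic regions do, with 1.45 and 3.25% of intronic regions for ERα in ZR751shLucif.

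The cell lines did not differ in these shares beyond the spread between replicates. For ERα the control mean was 2.35% ± 1.27 (SD, n = 2) and the knockdown mean 1.503% ± 0.536 (SD, n = 2), with a difference of -0.851 points (two-sided exact permutation test, p = 0.667, where 2 libraries against 2 cannot go below 0.33). Without ZR751shLucif replicate 2, whose library identifier in the sample description begins differently from those of the other ERα libraries, the difference was 0.050 points. For SP1 the control mean was 1.49% ± 0.438 (SD, n = 2) and the knockdown mean 1.84% ± 0.445 (SD, n = 2), with a difference of 0.348 points (two-sided exact permutation test, p = 0.667). It was 0.0334 points without ZR751shMLL3 replicate 2. Members in all 4 libraries held summits more often than members in 1 library in 7 of the 8 libraries, with 0.774 against 1.01% in the ERα library of ZR751shMLL3 replicate 2 as the exception. Since the former are wider, summits were also counted within 500 bp of the midpoint, a choice made after seeing the data. For ERα the shares were then 2.79 against 1.31% and 7.89 against 2.31% in ZR751shLucif, and 2.79 against 1.66% and 0.464 against 1.20% in ZR751shMLL3. Members in all 4 libraries were also concentrated in the 12 bins above, and the part of this in these shares was not tested.

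Over all regions, the mean differences between intronic and intergenic regions in ERα and SP1 were smaller than the spread between libraries. The intronic minus intergenic difference for ERα was -0.116 and -0.532 points in ZR751shLucif and -0.248 and 0.0594 points in ZR751shMLL3. Its mean was -0.209 ± 0.249 (SD, n = 4), with 3 of 4 libraries below 0 (exact paired permutation test, two-sided p = 0.250, with 0.13 the smallest possible). For SP1 the mean was -0.0127 ± 0.107 points (SD, n = 4, exact p = 0.750). Among regions in all 4 libraries ERα was lower at introns in every library, with a mean difference of -2.51 points (two-sided exact p = 0.13).

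The ERE was more frequent at ERα summits inside members than at the other ERα summits in introns. In windows of 300 bp centred on the summit it lay at 39 of 1738 summits in members (2.24%) and at 236 of 31890 elsewhere (0.740%). These counts pool the libraries, so that a site with a summit in several libraries counts several times. The shares by library are for the same reason not fully separate. By library, the shares were 1.30 against 0.307% and 1.89 against 0.975% in ZR751shLucif, and 3.13 against 1.11% and 2.90 against 0.594% in ZR751shMLL3. The mean difference was 1.56 ± 0.710 points (SD, n = 4), and all 4 libraries showed it (exact paired permutation test, two-sided p = 0.13, the smallest possible). ERα summits in members also ranked higher, with medians of 7512 to 8431 against 9948 to 10291, and the part of rank in this was not tested. Among the 9 members with a summit in every ERα library, the TPM3 region, in a tropomyosin gene, stood first, at ERα ranks of 14, 13, 18 and 23. For H3K4me1 it was held by ZR751shLucif replicate 2 alone, at rank 13062, and ZR751shMLL3 replicate 1 listed no peak there. In C12orf60 the ERα ranks were 83 and 33 in ZR751shLucif and 27 and 69 in ZR751shMLL3, and the H3K4me1 ranks 4689 and 609, and 3576 and 5566. The others lay in NOS1AP, RBBP8, THSD4, CNTN6, SETBP1, RIMS2 and UBTD2.

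The members lay in 5762 of 18324 protein-coding genes with eligible intron (31.4%), and 899 lay in more than 1 gene. One member was found in 2402 genes, 2 to 4 in 2045, 5 to 9 in 806 and 10 or more in 509. ERBB4, a receptor tyrosine kinase of the EGFR family, had the most, with 84 members in 1147 kb of eligible intron. HDAC9 followed with 77. AHR, a ligand-activated transcription factor, had 70, and RAD51B, which acts in homologous recombination, 67. TRPS1, a GATA-type repressor of luminal cells, had 64, NAALADL2 54, SRGAP1 51, the cAMP phosphodiesterase gene PDE4D 48, the diacylglycerol kinase gene DGKB 46 and BRINP3 43. Most of these are long genes. Per 100 kb of eligible intron, SRGAP1 had 17.6, TRPS1 16.8 and AHR 16.7 members, but NAALADL2 3.99 and PDE4D 3.16. Gene spans are those of GENCODE, which includes long alternative transcripts of AHR.

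Number and constancy of members were different things. None of the 84 members of ERBB4 was in all 4 libraries, though each library held 33 to 40 of them. RAD51B, TRPS1 and NAALADL2 had none in all 4 either. SRGAP1 had 16, HDAC9 13, C12orf60 8, and CNIH3, DISC1, PTPN14 and RERG 7 each. The 419 host genes with a member in all 4 libraries included 14 with 5 or more. SRGAP1, C12orf60 and RERG are on chromosome 12, CNIH3, DISC1 and PTPN14 on chromosome 1 and HDAC9 on chromosome 7.

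Of the 5762 host genes, 5406 (93.8%) were matched to the FPKM table. Members were denser in genes with more RNA. Genes with a mean of 0.1 FPKM or less had 9.16 members per Mb of eligible intron, those at over 0.1 to 1 FPKM 13.9, those at over 1 to 10 FPKM 20.6 and those over 10 FPKM 28.9. Every H3K4me1 library had this order. From the lowest to the highest class, members held per Mb went from 2.74 to 10.0 and from 2.74 to 9.83 in ZR751shLucif, and from 3.67 to 13.2 and from 3.50 to 10.5 in ZR751shMLL3. Members in all 4 libraries went from 0.186 to 1.16 per Mb, those in ZR751shLucif only from 0.339 to 1.27 and those in ZR751shMLL3 only from 0.322 to 1.38. Among genes with 20 to 100 kb of eligible intron, those without a member had a median of 3.03 to 3.38 FPKM in the 4 RNA libraries, those with 1 member 6.70 to 8.18, those with 2 to 4 members 8.45 to 9.94 and those with 5 or more 13.7 to 17.9. Within this class the median length of eligible intron also rose, from 37.6 to 70.5 kb. Genes are not independent replicates, and these values are a description.

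**Figure D5:**
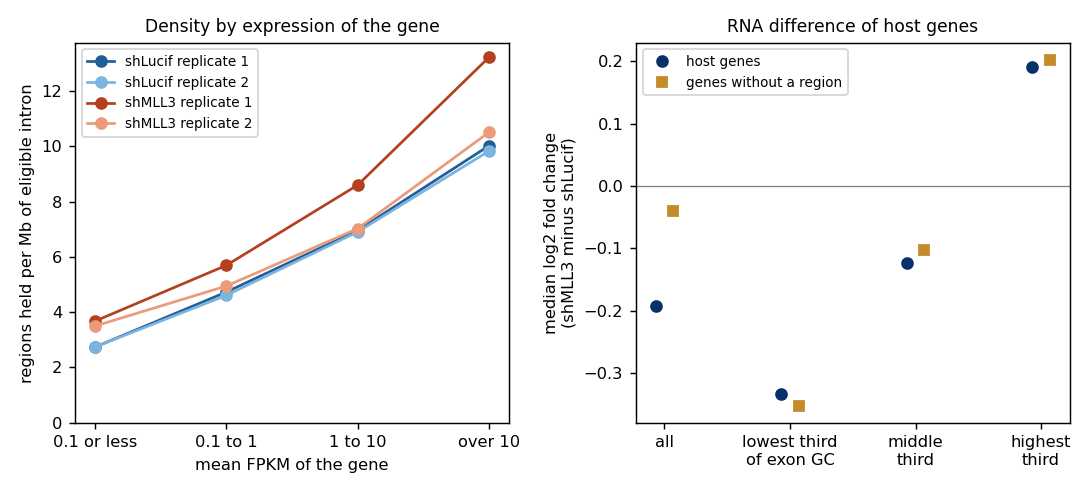
Left, intronic H3K4me1 regions held by each library per Mb of eligible intron, for genes in 4 classes of mean FPKM, which rise in every library to 9.83 to 13.2 in genes over 10 FPKM. Right, median log2 fold change of RNA (ZR751shMLL3 minus ZR751shLucif) in host genes and in genes without a region, over all genes and within terciles of exon GC content, where hosts minus other genes is 0.0180, -0.0214 and -0.0110 from the lowest to the highest.

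High RNA was not required. ERBB4 had 1.18 and 2.41 FPKM in the control libraries, against 0.824 and 1.56 after knockdown, and DGKB, with 46 members, at 0.0461 to 0.232 FPKM. TRPS1 and BRINP3 were at 44.1 to 86.5 and 67.1 to 107 FPKM. Among members that ranked highest, SRGAP1 was at 8.85 to 11.7 FPKM, CD46 at 159 to 249 and C12orf60 at 1.07 to 2.29.

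Gene lists were examined for the members in their introns. The luminal breast identity list had 16 hosts among 27 genes, with 78 members, or 50.9 per Mb of eligible intron. GRHL2, a luminal transcription factor, held 16, the adhesion gene CDH1 9, the prolactin receptor gene PRLR 9 and ESR1 itself 7. Of these members, 1 in CDH1 and 1 in PRLR were in all 4 libraries. Estrogen receptor targets had 12 hosts among 24 genes and 96 members, or 67.6 per Mb, led by BCL2 with 26, IGF1R with 24, RAB31 with 16 and PGR with 6. Growth factor and PI3K signalling genes had 17 hosts among 25 and 198 members, or 41.8 per Mb, of which ERBB4 held 84 and INPP4B 26. Estrogen receptor cofactors had 11 hosts among 16 genes, with 58 members, or 33.5 per Mb, and NCOA2 held 25 of them. The list of H3K4 methylation enzymes and partners had 7 hosts among 20 genes and 25 members, or 19.9 per Mb. Of these, 6 each were in KDM6A and NCOA6 and 5 in KDM5B. Epithelial junction genes had 12 hosts among 20 and 69 members, or 26.8 per Mb, with 15 members in PARD3.

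Lists of other cell types had fewer members per Mb than the 18.2 over all eligible intron. The median gene of each such list was at 0.101 FPKM or less in every RNA library. Among all genes, those with a mean of 0.1 FPKM or less had 9.16 members per Mb, and those over 10 FPKM 28.9. The part of RNA level in the densities of the lists was not tested. Basal and mesenchymal genes had 31 members in 10 of 19 genes, or 15.8 per Mb, with 12 in TP63, which was at 0.0535 to 0.0845 FPKM. Blood cell genes had 17 members in 4 of 17 genes, or 9.49 per Mb. Neuronal genes had 267 members in 14 of 19 genes, but 11.9 per Mb, since they span 22.4 Mb. LRP1B and PTPRD held 38 each and CSMD3 32, although LRP1B was at 0.0124 to 0.0456 FPKM and CSMD3 at 0.00263 to 0.0275 FPKM. By library, the luminal list had 33 and 37 members in ZR751shLucif and 34 and 28 in ZR751shMLL3, and the estrogen receptor targets 33 and 41 and then 42 and 30.

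RNA of the host genes was compared between the cell lines on the scale of log2(FPKM + 0.5), which understates changes of low genes. Of the hosts, 3760 were among the 11134 genes tested with limma. None passed an adjusted p of 0.05, where 1 gene did among all genes tested (0.00898%). At an unadjusted p under 0.05, 100 hosts (2.66%) were higher and 255 (6.78%) lower in ZR751shMLL3, beside 3.67 and 4.31% of all genes tested. The adjusted count changed with the libraries used. Without RNA of ZR751shLucif replicate 2 it was 389 hosts, of 1269 genes in all, and without that of ZR751shLucif replicate 1, the library that stood apart, it was 1 host, of 2 genes. With 1 surrogate variable removed, 163 hosts passed, of 473 genes in all, and with a replicate block 14, of 33. Both knockdown libraries lay above both control libraries for 428 hosts (11.4%) and below them for 1271 (33.8%), beside 17.6 and 25.3% of all genes. The median log2 fold change was -0.19 in hosts, -0.04 in protein-coding genes without a member and -0.10 over all genes tested.

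This gap moved with base composition. Exons of host genes had a median GC content of 44.2%, and those of other genes 52.7%. When genes were split into terciles of exon GC content, the median log2 fold change in the lowest was -0.33 in 1814 hosts and -0.35 in 1688 other genes, in the middle -0.12 and -0.10, and in the highest 0.19 and 0.20. Both knockdown libraries lay below both control libraries for 47.7, 25.6 and 8.35% of hosts, from the lowest to the highest tercile. For other genes these shares were 48.0, 22.5 and 4.35%. Upwards the shares were 3.47, 12.6 and 34.5% of hosts and 3.44, 13.8 and 37.0% of other genes. The terciles were chosen after seeing the data. In classes of eligible intron length the gap in medians was still present. It was -0.18 against -0.006 under 20 kb, -0.21 against -0.11 at 20 to 100 kb and -0.16 against -0.07 at 100 kb or more.

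Hosts were also divided by the cell line that held their regions. Of 579 genes with members in ZR751shLucif only and none in ZR751shMLL3 only, 385 were tested, with a median log2 fold change of -0.21. Of 513 genes of the reverse kind, 356 were tested, with -0.19. None in either passed the adjusted p. Among the former, the cell lines did not overlap for 36 that were higher (9.35%) and 139 that were lower (36.1%), and among the latter for 55 (15.4%) and 108 (30.3%), beside 11.4 and 33.8% of all hosts and 17.6 and 25.3% of all genes tested. Fewer genes had 2 or more such members. With 2 or more in ZR751shLucif only, 51 were tested, with 2 apart upwards (3.92%), 21 apart downwards (41.2%) and a median of -0.22. With 2 or more in ZR751shMLL3 only, 41 were tested, with 9 (22.0%), 8 (19.5%) and a median of -0.04. For the 385 and 356 hosts above, medians in the terciles of exon GC content were -0.30 against -0.32, -0.17 against -0.02 and 0.14 against 0.23. The difference between these classes was not tested. In the gene lists, 0 hosts passed the adjusted p. At an unadjusted p under 0.05, which 3.67 and 4.31% of all genes passed upwards and downwards, 2 luminal hosts, 2 hosts among estrogen receptor targets and 2 growth factor and PI3K hosts were lower and 1 cofactor host was higher, out of 16, 12, 13 and 11 tested. Of 2 neuronal hosts tested, 1 was higher and 1 lower. No host among the H3K4 methylation, epithelial junction, basal and mesenchymal, or blood cell genes did so.

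Of hosts of at least 3 members whose cell lines did not overlap, those with the largest differences were looked at singly. Upwards these were CBLN2, TMTC1, PGM5, NELL2 and WIPF1. CBLN2, a secreted synaptic protein, had 4.65 and 2.85 FPKM in the control libraries, against 37.0 and 34.2 after knockdown, or 3.12 ± 0.314 (SE) on the log2 scale (limma adjusted p = 0.148). Its 3 members were held 2 times and 1 time in the control libraries, against 0 and 1 after knockdown. TMTC1, a mannosyltransferase with 8 members, was at 11.7 and 9.65 and at 39.8 and 62.4 FPKM (log2 fold change 2.18). Of its members, ZR751shLucif libraries held 1 each and ZR751shMLL3 libraries 3 and 5. PGM5 was at 1.42 and 0.642 and at 4.15 and 8.54 FPKM, NELL2 at 5.86 and 10.7 and at 40.5 and 25.4, and WIPF1 at 0.506 and 0.613 and at 5.04 and 2.30. Their log2 fold changes were 2.13, 1.95 and 1.90, and the 3 members of PGM5 were all held by ZR751shMLL3 replicate 2 alone.

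The largest differences downwards were those of MUCL1, POU2AF3, NIBAN1, ERP27 and PRLR. PRLR had 17.1 and 21.4 FPKM in the control libraries, against 2.92 and 6.13 after knockdown, or -2.04 ± 0.384 (SE) on the log2 scale (limma adjusted p = 0.355). Its 9 members were held 6 and 4 times in ZR751shLucif and 7 and 3 times in ZR751shMLL3. NIBAN1 had 10.6 and 38.4 FPKM in the control libraries, against 5.15 and 3.20 after knockdown (log2 fold change -2.18, limma adjusted p = 0.495). Of its 21 members the ZR751shLucif libraries held 17 and 12 and the ZR751shMLL3 libraries 7 each, and 4 were in ZR751shLucif only. KCNK2 was a case of the reverse kind. Of its 23 members ZR751shLucif held 8 and 7 and ZR751shMLL3 15 and 18, 4 of them in ZR751shMLL3 only, and its RNA had 3.22 and 2.28 FPKM in the control libraries, against 6.12 and 12.1 after knockdown (limma adjusted p = 0.476). ERP27, of the endoplasmic reticulum, was at 50.7 and 40.8 and at 9.18 and 11.9 FPKM (log2 fold change -2.07), with 2 of its 4 members in all 4 libraries. MUCL1, a secreted mucin-like protein, was at 570.3 and 282 and at 8.21 and 17.7 FPKM, and POU2AF3 at 27.9 and 4.02 and at 2.42 and 0.987 (log2 fold changes -5.00 and -2.44). Without ZR751shLucif replicate 1 the value of POU2AF3 was -1.12, and without replicate 2 it was -3.77 and that of NIBAN1 -1.28. None of these genes passed the adjusted p in the main fit. With the replicate block CBLN2, TMTC1, MUCL1, POU2AF3, ERP27 and PRLR passed, at limma adjusted p of 0.000480 to 0.0445. With 1 surrogate variable removed all of these genes passed, at 0.000976 to 0.0442. Neither fit can change a log2 fold change here. The same replicate number did not pair RNA libraries, and the surrogate variable came from the residuals of the same values. As the genes were chosen on these values, the passes are no separate support. KCNK2, named above for its region, was set beside the others after its values were seen.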

How the data were processed

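H3K4me1, ERα and SP1 peak lists of single ChIP-seq libraries and 1 table of FPKM values were used. The authors aligned ChIP-seq reads to hg19 with BWA 0.7.5a-r405, removed duplicates with Picard 1.126 and called peaks with SPP in each library against the input of its cell line, as relaxed lists limited by rank. The deposited lists give a signal, on which peaks were ranked, and a −log10 FDR. For RNA the authors aligned reads with TopHat2 2.0.13 and made FPKM values with Cufflinks and Cuffnorm 2.2.1. Input libraries were not used here.

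Peaks were placed on genes of GENCODE 44 lifted to GRCh37 with Python 3.11.15, pandas 2.3.3 and numpy 2.4.6. Eligible intron is all sequence that meets the position rule. Table entries were looked up by transcript accession in the RefSeq gene table. They were then matched to genes by Ensembl identifier or, where that failed, by symbol. Of 23500 entries, 22894 had a symbol. RNA was tested with limma 3.58.1 in R 4.3.3 on log2(FPKM + 0.5) over genes with a mean above 1 on that scale, which is the study's filter, with Benjamini-Hochberg adjustment. On simulated data with 200 of 11134 genes changed by 3 on the log2 scale, 134 of these and 5 others were called. Smaller changes were not simulated. Shares per library were compared by exact permutation tests, where 2 against 2 libraries cannot go below p = 0.33. Figures were drawn with matplotlib 3.10.9. Wilson intervals of 95% cover counting error only.

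Named regions were the 5 with the lowest worst rank in all 4 libraries, in both ZR751shLucif libraries only and in both ZR751shMLL3 libraries only. Named genes were the 10 hosts with the most members, up to 4 hosts per list with the most members, any host that passed the adjusted p, and the 5 hosts of at least 3 members with the largest difference each way whose cell lines did not overlap. Members, lists and tests were chosen with earlier results of these data known. The same replicate number did not pair RNA libraries, whose deviations had a correlation of 0.0374. Alternatives changed the number of peaks, the distance to a TSS, the annotation, the pseudocount, the filter and the libraries. Some items that these rules name are not reported here.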

Additional observations from a re-analysis of the deposited data

How the results depend on the processing

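The number of intronic regions depended on how many peaks were taken, with 11557 for the top 10000 and 43579 for the top 50000 peaks, and was 15908 to 18475 when 1 library was left out. Leaving out 1 library moved the ZR751shMLL3 minus ZR751shLucif difference in intronic share between 0.235 and 2.74 points. It moved that in ERα share between -1.75 and 0.050, the latter without ZR751shLucif replicate 2, and that in SP1 share between 0.0334 and 0.662. With the top 5000 SP1 peaks the SP1 difference was -0.143. The intronic minus intergenic difference for ERα stayed between -0.299 and -0.102 with 1 library left out. For SP1 it was -0.0499 to 0.0314, the latter without ZR751shMLL3 replicate 2, and it was above 0 with the top 5000 peaks (0.000733), with regions in all 4 libraries (0.215) and with summits within 500 bp of the midpoint (0.0121, chosen after seeing the data). The cause of these changes was not tested.

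No host passed the adjusted p with other pseudocounts, without the filter, with a stricter filter or with centred values. With the replicate block 14 did, with 1 surrogate variable removed 163, and with 1 library left out 0 to 389. With the same number of libraries in each cell line, a replicate block cannot change the difference in intronic share, 1.49 points. The median log2 fold change of hosts was -0.27 to -0.12 with 1 library left out. Hosts minus other genes was 0.0180 in the lowest tercile of exon GC content (chosen after seeing the data). Of 310 log2 fold changes of 29 named hosts under the alternatives, 32, in 13 genes, came to pass the adjusted p, mostly with 1 surrogate variable removed or without ZR751shLucif replicate 2. None changed sign, which the replicate block and the surrogate variable could not bring about. A fit that leaves out 1 library assumes that the lone library varies like the other cell line.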
